A study of Danio rerio with 45 samples.

Results

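Uninjected zebrafish blastula explants at 5 hours post fertilization (hpf) were compared with uninjected explants at 4 hpf, across all genes. The libraries were chosen by their titles, as the control explants of these ages. There were 3 at 5 hpf and 3 at 4 hpf, 6 of the 45 libraries of the series. Both groups came from AB strain embryos that received no mRNA and no drug, were kept in Danieau buffer up to the 1k stage and then in DMEM. Explants of the animal pole, about the upper part of the blastula, were cultured over agarose to the age given. Total RNA was extracted with TRIzol, and the sources used here do not say how RNA was selected for the libraries. The other libraries are 6 hpf controls and explants whose embryos had ndr2 mRNA, which encodes a Nodal ligand, injected into a single animal-pole cell at the 128-cell stage. Of these, the 2 pg group and the group with 10 pg and cycloheximide (CHX) are used below, at 5 and 4 hpf. CHX, a blocker of translation, was added at 50 μg/μl minutes after the injection and kept until harvest. The 4 hpf libraries of that group were thus already treated.

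A zebrafish embryo begins on RNA and protein stored in the egg, and switches to its own transcripts in the blastula, a step called zygotic genome activation. The maternal factors Pou5f3, Sox19b and Nanog open many of the first active enhancers. Stored maternal RNA is removed in the same period by several routes, among them the zygotic microRNA miR-430. Cells of the animal pole give rise to ectoderm, and their outermost cells become the enveloping layer, a flat epithelium rich in keratins, while mesoderm and endoderm form at the margin under Nodal signals.

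The 5 hpf libraries held 23959214, 24082722 and 25043228 counts, against 25524210, 24033931 and 19370609 at 4 hpf. Levels are given in CPM (the share of a library's counts, scaled by TMM factors and by 1e6). "Rose" and "fell" are used where edgeR's quasi-likelihood test gave a Benjamini-Hochberg adjusted p under 0.05 across the 21075 genes tested. The value after ± is the SD of a level (n = 3 per age) or an approximate standard error of a log2 fold change. That error was worked back from the test, as the size of the change over the square root of its F value. Whether replicates were separate cultures is not stated, so the p-values cover the spread between libraries alone, and that spread may be technical. This spread was estimated over all 43 libraries fitted in 15 groups, and not from the 6 compared libraries alone. Replicate 2 of 5 hpf stood apart. On the first principal component of the 9 control libraries, which carried 80.2% of the variance, it lay at -93.48, nearest to the 6 hpf controls (-111.6 to -104.6), while replicates 1 and 3 lay at -37.62 and -14.83 and the 4 hpf libraries between 131.8 and 176. Each of the 6 libraries was left out in turn, and a value without a library is given where a gene's call or size moved with it. The labelled cell type was checked with the blastula factor genes nanog, pou5f3, sox19b, klf17 and foxd3, whose summed level was 4422, 4266 and 3449 CPM at 5 hpf and 3287, 3279 and 3460 CPM at 4 hpf. Most of this sum was nanog and pou5f3 in each library. Of the blastula genes, pou5f3 rose (1.04) and sox19b fell (-2.75), while nanog (-0.34), klf17 (0.40) and foxd3 (-0.84) were not called. Symbols are printed as the symbol table gives them, some in capitals.

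Many genes changed within this hour, in both directions. Of the 21075 genes, 5981 (28.4%) were higher at 5 hpf and 5426 (25.7%) were lower. These percentages are the background for each count of list members given below. The median log2 fold change was 2.03 among the genes that rose and -1.71 among those that fell, against 0.03 over all genes. The rises reached further: 934 genes rose and 166 fell by over 4 log2 units, and 269 rose and 30 fell by over 6. All 5 hpf libraries lay above all 4 hpf libraries in 5859 genes (27.8%) and below them in 6009 (28.5%). The genes that rose held 68.4 ± 5.81% of the counts at 5 hpf and 36.5 ± 1.77% at 4 hpf, and those that fell held 9.64 ± 2.55% and 33.2 ± 1.92%. These shares describe genes chosen by the test and carry no test of their own.

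**Figure D1:**
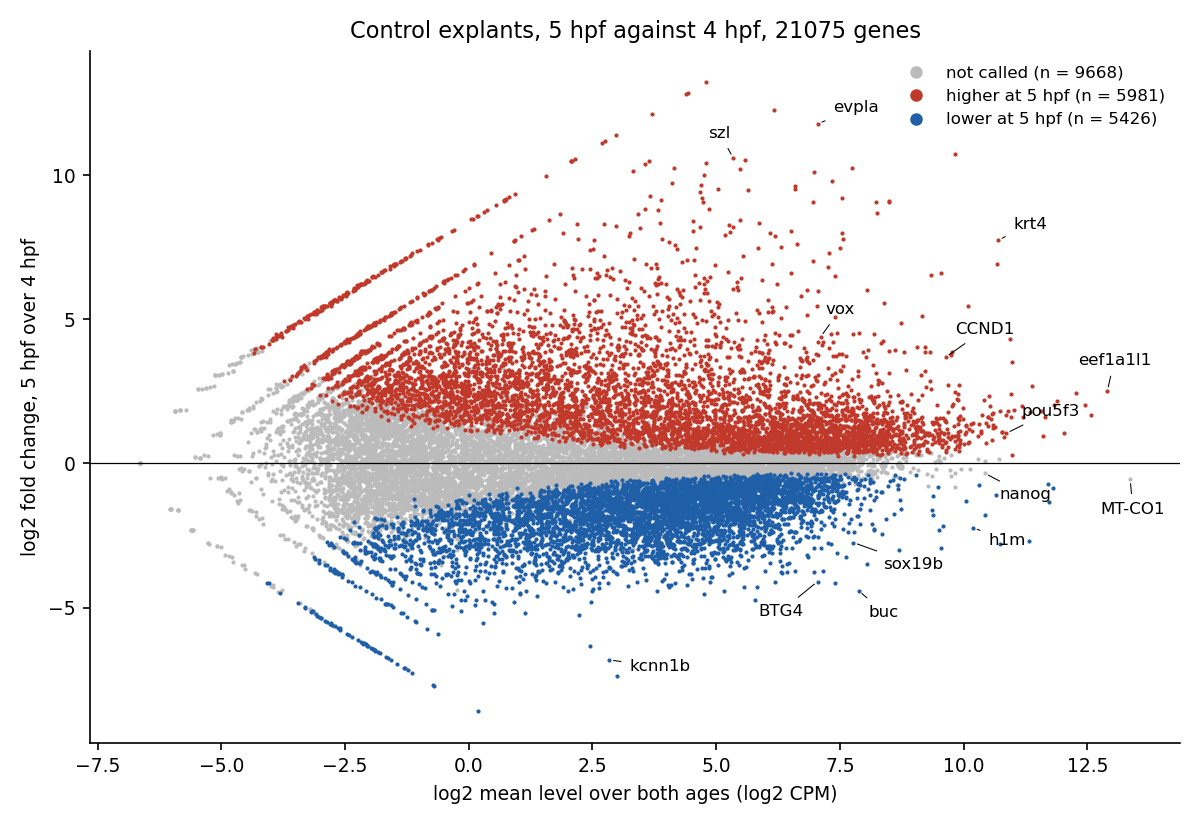
Log2 fold change of each of the 21075 genes, 5 hpf over 4 hpf (y axis), against the log2 of its mean CPM over both ages (x axis). Red points are the 5981 genes that rose and blue points the 5426 that fell, with rises reaching larger sizes than falls and nanog among the genes not called.

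The balance of rises and falls depends on the scaling. With library totals in place of TMM factors, 4200 genes rose and 7494 fell, so that rises made up 35.9% of the called genes instead of 52.4%, and the median over all genes moved to -0.41. TMM factors were 0.914, 0.768 and 1.07 at 5 hpf and 1.24, 1.26 and 1.23 at 4 hpf. The amount of RNA per explant was not measured, so changes are relative to the RNA of the library. In bulk RNA, fewer cells of a type and less RNA per cell cannot be told apart.

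Keratin and envelope genes of the enveloping layer rose steeply. The keratin gene krt5 was at 1041, 4245 and 152 CPM at 5 hpf, against 0.222, 0.527 and 2.6 CPM at 4 hpf. Its rise was 10.73 ± 1.21 log2 units (adjusted p = 1.63e-08), 9.13 without replicate 2 of 5 hpf and 12.23 without replicate 3 of 4 hpf. Every 5 hpf library stood far above every 4 hpf library, and the 5 hpf libraries themselves spread widely, with replicate 2 highest and replicate 3 lowest. The same order held for evpla, an envoplakin gene of the cornified cell envelope family, at 151, 630 and 19.9 CPM against 0.0952, 0 and 0.126 CPM (11.78 ± 1.29, or 10.13 without replicate 2 of 5 hpf and 11.19 without replicate 2 of 4 hpf). It held for the keratin gene krt97, at 300, 1813 and 58.5 CPM against 0.539, 0.856 and 2.8 CPM (9.05 ± 1.03, or 7.04 without replicate 2 of 5 hpf and 10.01 without replicate 3 of 4 hpf). The keratin genes krt4 and krt8, markers of the layer, were at 2753, 6037 and 1163 CPM and at 2701, 5702 and 1374 CPM at 5 hpf, against at most 29.2 and 53 CPM at 4 hpf. The fitted rise of krt4 was 7.74, or 6.98 without replicate 2 of 5 hpf and 8.57 without replicate 3 of 4 hpf, and that of krt8 was 6.91, or 6.23 and 7.82 without these libraries.

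Of 27 enveloping layer genes listed, 25 matched a gene and 24 passed the filter on low counts. Of the 24, 21 rose, 0 fell and 3 were not called, with a median of 5.72. Leaving out replicate 2 of 5 hpf, 19 rose and the median was 4.67. The early regulator gene grhl3, a grainyhead-like factor of surface epithelium, was at 806, 602 and 409 CPM at 5 hpf and already at 134, 88 and 138 CPM at 4 hpf (2.34, adjusted p = 4.17e-06). The tight junction gene cldne stood at 839, 1212 and 437 CPM at 5 hpf and 25.7, 13 and 46.5 CPM at 4 hpf (4.87, adjusted p = 2.01e-06). The 10 marker genes of the layer summed to 10497, 23958 and 4809 CPM at 5 hpf and to 214, 164 and 352 CPM at 4 hpf. The order of the 5 hpf libraries in this sum is their order along the first principal component, and the part of replicate 2 in the sizes given was not tested beyond leaving it out. Not called were AGR2 (-0.28, an anterior gradient protein gene), epcam (0.10, an epithelial adhesion molecule) and krt18b (0.88, a keratin).

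Several of the steepest rises started from no counts at all. In 183 of the genes that rose, the 4 hpf libraries held 0 counts, and 222 genes averaged at least 5 CPM at 5 hpf and under 0.5 CPM at 4 hpf. Of the 12 largest rises among genes with a symbol and separate libraries, 8 had 0 counts at 4 hpf. Their folds use counts summed over the libraries of an age and set the 4 hpf group at 3 counts. They are lower bounds for counting error at 4 hpf only, and do not cover the spread between 5 hpf libraries. MAL2, a membrane protein gene of apical transport, was at 5.02, 31.6 and 2.14 CPM at 5 hpf and was at least 321-fold higher (fitted log2 value 11.11, or 9.27 without replicate 2). agr1, a secreted anterior gradient protein gene, was also at least 321-fold higher, but its 0.365, 39.8 and 0.3 CPM rest on replicate 2 (fitted log2 value 11.17, or 5.86 without it). The genes si:ch211-217k17.9, si:ch211-232i5.1, si:ch211-217k17.8, zgc:194679, zgc:113442 and si:ch73-239g21.2 were at least 1333-, 1053-, 997-, 630-, 382- and 212-fold higher by these summed counts. Replicate 2 was their highest 5 hpf library at 158, 114, 120, 70.2, 43 and 24.1 CPM. Replicate 3 was their lowest at 1.24, 3.26, 0.6, 2.51, 0.9 and 0.112 CPM. Their fitted log2 values, which are no bounds, were 13.22, 12.86, 12.81, 12.12, 11.4 and 10.56, and 9.65, 10.43, 8.88, 9.36, 8.55 and 7.62 without replicate 2. B3GNT5 (ENSDARG00000018971), a glycolipid glycosyltransferase gene, was at 133, 281 and 16.2 CPM at 5 hpf and held 2 counts at 4 hpf. Its counts, scaled to library size, were 5460-fold higher, with a 95% counting interval of 1511 to 45090, and its fitted value of 12.25 became 11.31 without replicate 2 of 5 hpf and 14.58 without replicate 3 of 4 hpf. The symbol is shared by 2 genes, so the paralog is uncertain.

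**Figure D2:**
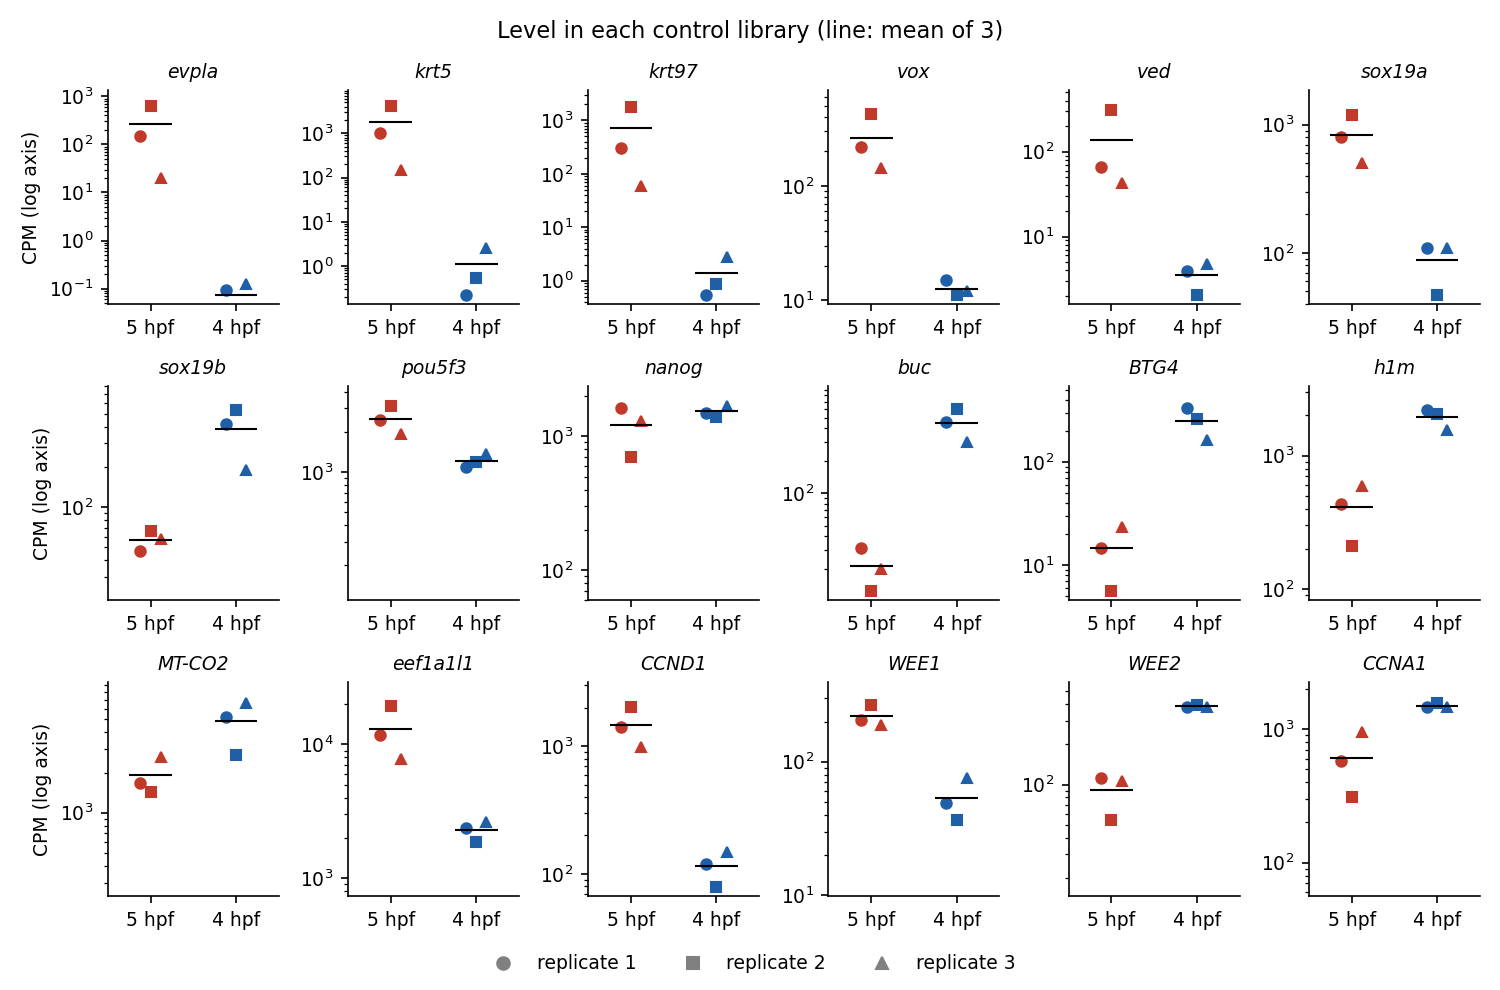
Level of 18 genes in each control library in CPM (log axes with a separate range per gene), 5 hpf in red and 4 hpf in blue, with the marker shape giving the replicate and the line the mean of 3. Replicate 2 is the highest 5 hpf library for evpla, krt5, krt97, vox, ved, sox19a and eef1a1l1 and the lowest for nanog, buc, BTG4 and h1m, and evpla at 4 hpf in replicate 2 is not drawn because it was at 0.

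Genes of the ventral and surface ectoderm rose with Bmp pathway genes. Of 16 measured epidermal and ventral ectoderm genes, 13 rose, 1 fell and 2 were not called, with a median of 4.19 (10 rose, median 2.65, without replicate 2 of 5 hpf). Ventral homeobox genes were among them. vox, a repressor of dorsal fate downstream of Bmp, was at 220, 426 and 144 CPM at 5 hpf, against 15, 11 and 12 CPM at 4 hpf (4.38 ± 0.44, adjusted p = 1.86e-09), with groups that do not overlap. Its relatives vent and ved rose by 5.09 ± 0.64 and 5.29 ± 0.83, or by 4.35 and 3.94 without replicate 2 of 5 hpf, and vent by 5.84 without replicate 3 of 4 hpf. The AP-2 factor gene TFAP2C was at 102, 512 and 64.8 CPM against 3.08, 2.14 and 5.44 CPM (6.00 ± 0.77, or 4.56 without replicate 2). szl, the secreted Bmp feedback inhibitor Sizzled, was at 9.96, 231 and 2.7 CPM against 0.0317, 0.0987 and 0 CPM (10.60 ± 1.78, or 6.92 without replicate 2 of 5 hpf and 11.73 without replicate 2 of 4 hpf). The even-skipped gene eve1 held counts in replicate 2 alone, at 6.71 CPM, and its fitted log2 change of 8.56 was 0 without that library (adjusted p = 1) and 9.15 without replicate 1 or replicate 3 of 5 hpf. The gene that fell was the homeobox gene msx1b (-1.81, adjusted p = 0.011), which was not called without replicate 1 or 3 of 5 hpf (-1.29 and -1.54, adjusted p = 0.0683 and 0.0563) and was at -3.20 without replicate 2, and the basal epidermal factor gene TP63 was not called (0.09, adjusted p = 0.892).

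Of 20 measured Bmp pathway genes, 12 rose, 2 fell and 6 were not called (median 2.34). This list shares members with the epidermal and ventral ectoderm list, szl and ved among them, so the counts are not separate. The ligand genes bmp7a (4.46 ± 0.73, adjusted p = 6.27e-06) and BMP4 (4.89 ± 1.16, adjusted p = 0.000669) rose, BMP4 by 3.17 without replicate 2 of 5 hpf and by 5.96 without replicate 3 of 4 hpf. TLL1, a tolloid-like protease that frees Bmp from Chordin, was at 51.3, 112 and 27.6 CPM against 1.84, 1.71 and 2.05 CPM (5.09 ± 0.78, or 4.40 without replicate 2 of 5 hpf). The falls were gdf6a, a maternally and zygotically expressed Bmp-type ligand gene, at 0.693 ± 0.185 CPM against 7.17 ± 2.57 CPM (-3.35 ± 0.6), and the Bmp target gene ID2 (-1.32 ± 0.44). ID2 was not called without replicate 1 or 3 of 5 hpf (-0.90 and -1.18, adjusted p = 0.0864 and 0.0501) or replicate 1 of 4 hpf (-1.04, adjusted p = 0.0704), and was at -2.15 without replicate 2 of 5 hpf. The Bmp antagonist gene chrd was not called (1.30 ± 0.69, adjusted p = 0.11), but was called without replicate 2 of 5 hpf (1.79, adjusted p = 0.0332) or replicate 3 of 4 hpf (2.96, adjusted p = 0.0014).

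Genes that mark the start of zygotic transcription rose as well. Of 25 measured early zygotic genes, 17 rose, 3 fell and 5 were not called, with a median of 2.37. This list shares members with those above, so the counts are not separate. Its genes ved and vent are also in the Bmp list, and ved in the ventral ectoderm list. tbx16, a T-box factor of mesoderm progenitors, was at 651, 718 and 457 CPM at 5 hpf and at 32.9, 17.7 and 51.2 CPM at 4 hpf (4.17 ± 0.63, adjusted p = 1.81e-06). The SoxB1 gene sox19a was at 803, 1181 and 507 CPM against 108, 46.4 and 108 CPM (3.25 ± 0.44). Both had groups that do not overlap, with sox19a again highest in replicate 2. The 3 that fell were OTX1 (-3.10 ± 0.42, 14.6 ± 4.82 against 125 ± 32.8 CPM), a head homeobox gene, the Hairy-related gene her5 (-2.13 ± 0.61) and the yolk syncytial homeobox gene mxtx2 (-2.06 ± 0.71). mxtx2 was not called without replicate 2 of 5 hpf (-1.67, adjusted p = 0.0795) or replicate 2 of 4 hpf (-1.31, adjusted p = 0.15).

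The factors that start zygotic transcription did not move together. Of 15 genome activation factors listed, 10 were matched and all passed the filter. 5 rose and 3 fell, with a median of 0.24, which was -0.25 with library totals and -0.02 without replicate 2 of 5 hpf, and in both of these cases 2 rose. nanog was at 1643, 705 and 1293 CPM at 5 hpf and at 1508, 1403 and 1701 CPM at 4 hpf (-0.34 ± 0.25, adjusted p = 0.252), so its groups overlap. pou5f3 was at 2468, 3122 and 1928 CPM against 1099, 1180 and 1370 CPM (1.04 ± 0.16, adjusted p = 1.31e-06). sox19b was at 47.2, 65.8 and 57.3 CPM against 422, 533 and 188 CPM (-2.75 ± 0.39, adjusted p = 5.28e-07). The groups of both are separate, in opposite directions. CTCF, an insulator factor gene, rose by 1.60 ± 0.23. foxh1, the forkhead partner of Nodal Smads, rose by 0.50 ± 0.21 with overlapping libraries, and its value was -0.01 with library totals and 0.02 without replicate 2 of 5 hpf. Leaving out any of the 4 hpf libraries also ended the call of foxh1, at 0.53, 0.43 and 0.55 (adjusted p = 0.0694, 0.137 and 0.0537). The Myc partner gene MAX rose by 0.34 ± 0.11, which became -0.12 with library totals and 0.23 (adjusted p = 0.0796) without replicate 2. TAF3, a TFIID subunit gene, was not called (0.14 ± 0.25). TBP, the TATA-binding protein gene, was at 108, 66.4 and 152 CPM against 476, 453 and 455 CPM (-2.09 ± 0.23), and its oocyte form TBPL2 fell by 4.10 ± 0.62 on the log2 scale.

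Maternal and zygotic forms of the same protein were set side by side in 7 pairs, the maternal form named first in each. In 4 of the 7 pairs the maternal form fell and the zygotic form rose. These were sox19b (-2.75) with sox19a (3.25), WEE2 with WEE1, slbp2 with slbp and pabpn1l with PABPN1. WEE2, a kinase that holds Cdk1 inactive in mammalian oocytes, was at 112, 54.5 and 106 CPM at 5 hpf against 383, 397 and 379 CPM at 4 hpf (-2.09 ± 0.32). Its somatic counterpart WEE1 was at 206, 268 and 188 CPM against 48.9, 36.9 and 76 CPM (2.03 ± 0.27). Neither gene overlaps between ages. The histone stem-loop binding protein genes changed by -4.43 ± 0.49 (slbp2) and 1.23 ± 0.23 (slbp), and the poly(A)-binding genes by -1.67 ± 0.26 (pabpn1l) and 1.28 ± 0.14 (PABPN1). In the others, the cyclin gene CCNA1 fell (-1.29 ± 0.29) while CCNA2 was not called (0.13 ± 0.15), the oocyte cap-binding gene EIF4E1B was not called (-0.21 ± 0.23) while EIF4E rose (2.51 ± 0.32), and TBPL2 and TBP both fell.

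RNAs of the oocyte programme fell. Of 28 maternal genes listed, 26 were matched and measured. 23 of them fell, 0 rose and 3 were not called, with a median of -2.25 (21 fell, median -1.97, without replicate 2 of 5 hpf). buc encodes Bucky ball, the organizer of germ plasm. It was at 30.9, 12.4 and 19.8 CPM at 5 hpf, against 451, 601 and 299 CPM at 4 hpf (-4.42 ± 0.59, adjusted p = 2.34e-07). BTG4, an adaptor of the CCR4-NOT deadenylase in the maternal mRNA clearance of mice, was at 14.6, 5.62 and 23.4 CPM against 329, 258 and 163 CPM (-4.10 ± 0.54). h1m, the maternal linker histone gene, was at 435, 211 and 588 CPM against 2202, 2044 and 1554 CPM (-2.23 ± 0.32). In all of these the groups are far apart, and replicate 2 is the lowest 5 hpf library. The list took 0.194, 0.0863 and 0.27% of the counts at 5 hpf, against 0.978, 0.955 and 0.754% at 4 hpf (exact permutation test, two-sided p = 0.1, the smallest that 3 against 3 libraries allow). The 3 not called were EIF4E1B (-0.21) and the egg envelope genes zp3 (0.00) and zp3b (0.21).

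The 12 largest falls by the naming rule held the potassium channel genes kcnn1b, KCNH8 and KCNS3, but no list of channel genes was counted. kcnn1b, a calcium-activated potassium channel gene, was at 0.0914, 0.162 and 0.112 CPM at 5 hpf against 15.1, 16.8 and 10.6 CPM at 4 hpf (-6.82 ± 1.33, adjusted p = 7.24e-05). KCNH8, a voltage-gated potassium channel gene, fell by 5.24 ± 1.1 on the log2 scale, and KCNS3 (ENSDARG00000029511), a silent potassium channel subunit gene, by 4.43 ± 0.68. ANXA6, a membrane-binding annexin gene, was at 0.0914, 0.0541 and 0.112 CPM against 14.8, 9.84 and 22.6 CPM (-7.38 ± 2.28). In these genes each 5 hpf control library was below 1 CPM and each 4 hpf control library above 5. ANXA6 was uneven within other groups, at 5.56, 12.3 and 0.479 CPM in the 6 hpf controls. With 2 pg of ndr2 it was at 0.601, 11.3 and 18.2 CPM at 5 hpf and at 0.046, 17.3 and 1.73 CPM at 4 hpf. The Polycomb gene CBX8 (ENSDARG00000098771) fell by 4.54 ± 0.48, and the sulfotransferase gene CHST15 by 4.81 ± 0.72. ANKRD33B (ENSDARG00000015589), an ankyrin repeat gene, changed by -6.33 ± 1.11 (-7.11 without replicate 3 of 5 hpf), and CCSAP (ENSDARG00000025325), a centriole-associated gene, by -4.36 ± 0.74 (-5.33 without that library). KCNS3, CBX8, ANKRD33B and CCSAP share their symbols with another gene, so the paralog is uncertain. The others were slbp2, buc, ccdc15 (-4.44 ± 0.71, or -3.77 without replicate 2 of 4 hpf) and si:ch211-241b2.4 (-4.43 ± 0.63, or -5.85 without replicate 3 of 5 hpf). Falls to nothing were fewer than rises from nothing: 52 genes that fell had 0 counts in all 5 hpf libraries, and 24 averaged under 0.5 CPM at 5 hpf and at least 5 CPM at 4 hpf.

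Germ plasm RNAs fell with some exceptions. Of 14 primordial germ cell genes, all measured, 11 fell and 3 rose (median -1.84). ca15b, a germ plasm carbonic anhydrase gene, was at 4.84, 3.68 and 7.08 CPM against 87, 51.5 and 43.2 CPM (-3.54 ± 0.58), and rgs14a, a G-protein signalling regulator gene, at 3.56, 1.73 and 3.49 CPM against 29.9, 36.6 and 14.9 CPM (-3.21 ± 0.46). The 5 hpf libraries of both lie below all 4 hpf libraries. NANOS3, a translational repressor of germ cells, fell by 2.70 ± 0.62 on the log2 scale. The 3 that rose were DDX4 (0.75 ± 0.2), the Vasa helicase gene, with PIWIL1 (0.82 ± 0.19) and TDRD9 (0.85 ± 0.2) of the piRNA pathway, and 0 of the 14 rose with library totals. The 6 germ cell markers summed to 308, 211 and 294 CPM at 5 hpf and 360, 323 and 281 CPM at 4 hpf, with overlapping libraries. DDX4 alone was at 270, 186 and 254 CPM against 128, 146 and 148 CPM. Of 9 measured genes listed as targets of miR-430, 7 fell and 1 rose (median -1.64). The antioxidant enzyme gene SOD1 fell by 3.06 ± 0.32, and the chemokine gene CXCL12 rose by 2.77 ± 0.62.

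**Figure D3:**
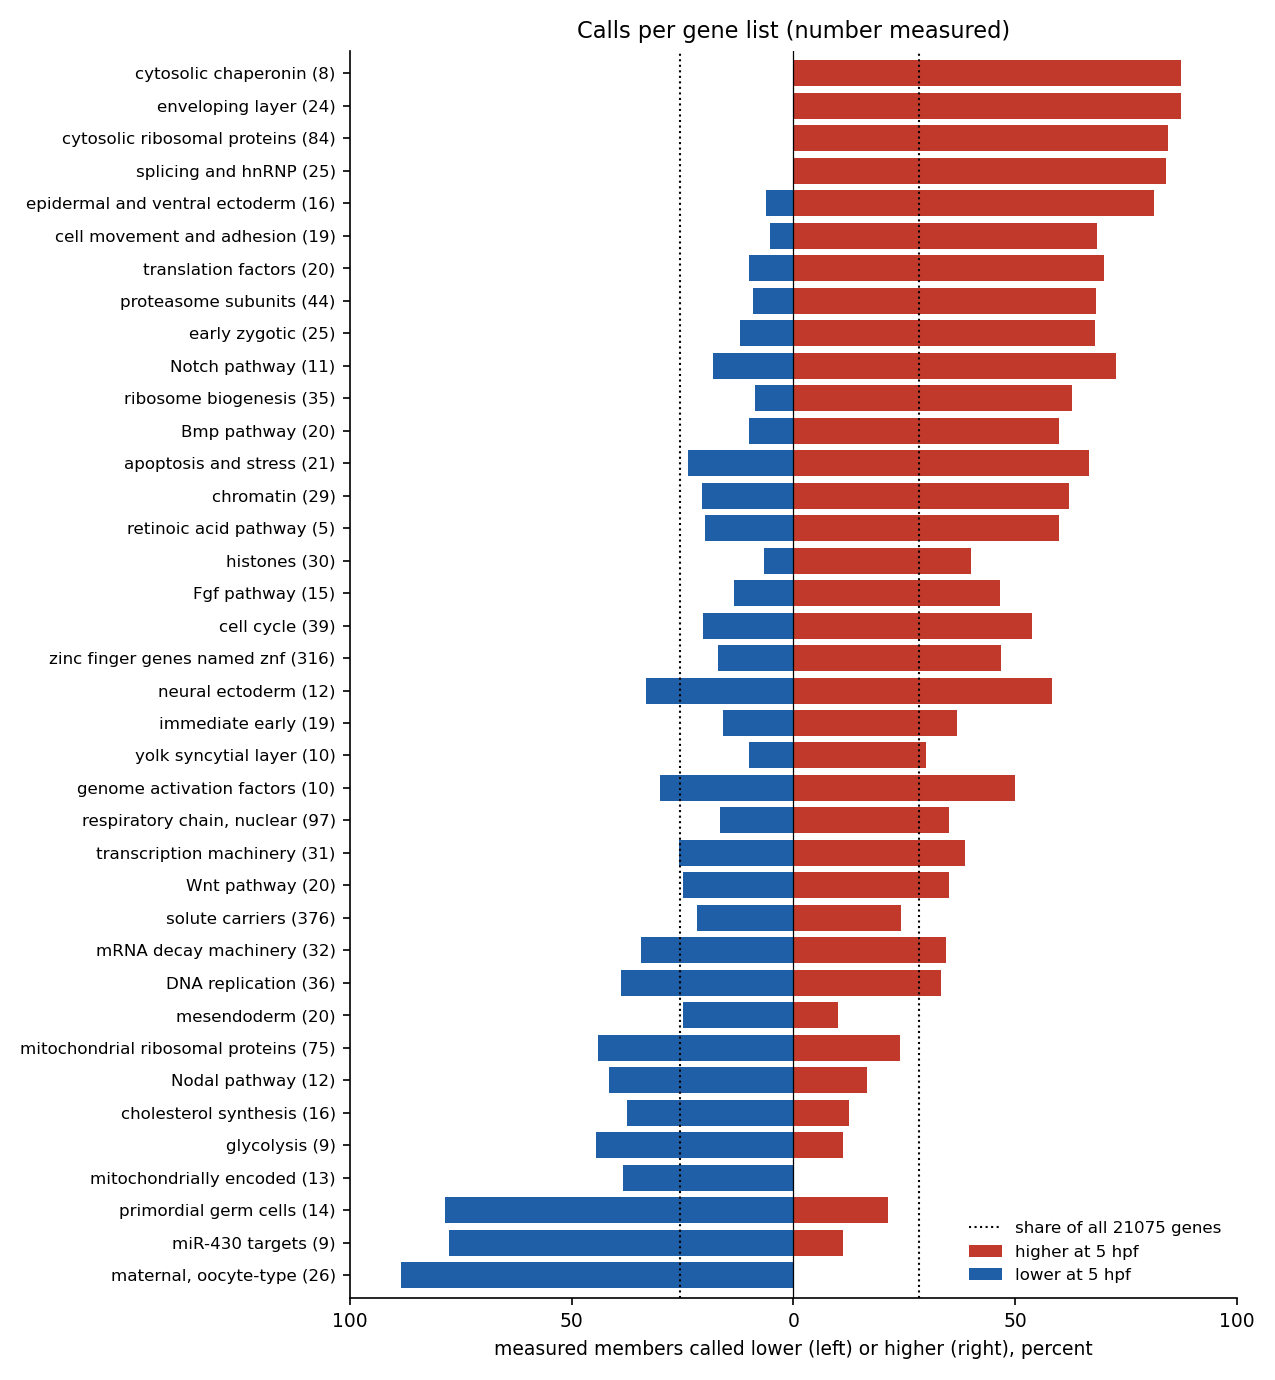
Percent of the measured members of each of 38 gene lists that rose (red, right) or fell (blue, left) at 5 hpf, with the number measured in parentheses. Dotted lines give the shares of all 21075 genes, 28.4% and 25.7%; the bars use TMM scaling, and the median of the nuclear respiratory chain, DNA replication, genome activation, transcription machinery and yolk syncytial layer lists turns negative with library totals, as does that of the DNA replication and genome activation lists without replicate 2 of 5 hpf.

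Of 32 measured genes of RNA decay, 11 rose and 11 fell (median -0.17), beside 28.4% and 25.7% over all genes, and 17 fell with library totals. BTG4 and the deadenylase genes CNOT7 (-2.50 ± 0.39) and cnot6b (-1.98 ± 0.36) fell, as did DROSHA, the nuclear nuclease of microRNA processing (8.68, 17.2 and 12.3 CPM against 63, 46.7 and 36.6 CPM, -1.94 ± 0.33). CNOT1, the scaffold of the CCR4-NOT complex, rose by 1.74 ± 0.26, the exonuclease gene XRN1 by 1.11 ± 0.19 and the m6A reader gene YTHDF2 by 0.65 ± 0.18. Without replicate 2 of 5 hpf, YTHDF2 was not called (0.36, adjusted p = 0.0883).

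The 6 largest gains in mean CPM were in eef1a1l1, khdrbs1a, hmga1a, hnrnpa0l, cirbpb and actb2. The translation elongation factor gene eef1a1l1 was at 11823, 19536 and 7784 CPM at 5 hpf and at 2385, 1849 and 2627 CPM at 4 hpf (2.51 ± 0.2, adjusted p = 2.24e-11). khdrbs1a, an RNA-binding splicing regulator gene, was at 9292, 11921 and 5970 CPM against 2316, 2031 and 2324 CPM (2.03 ± 0.17). The chromatin architecture gene hmga1a rose by 2.43 ± 0.21, the hnRNP gene hnrnpa0l by 1.67 ± 0.14, the cold-inducible RNA-binding gene cirbpb by 2.16 ± 0.22 and the actin gene actb2 by 2.03 ± 0.16. The lowest 5 hpf library was above the highest 4 hpf library for each of these genes. Of 25 measured splicing and hnRNP genes, 21 rose and 0 fell (median 1.39, or 0.88 with library totals, where 17 rose and 1 fell). hnrnpa0a was at 517, 826 and 324 CPM against 33.3, 14.3 and 27.1 CPM (4.48 ± 0.41), and the SR protein genes srsf2b and srsf5a rose by 3.44 ± 0.3 and 2.73 ± 0.34.

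Ribosomal protein genes rose by smaller amounts. Of 84 cytosolic ribosomal protein genes, 71 rose, 0 fell and 13 were not called, with a median of 1.12 (57 rose, median 0.78, without replicate 2 of 5 hpf, and 51 rose and 4 fell, median 0.64, with library totals). They took 1.77, 2.18 and 1.55% of the counts at 5 hpf, against 1.37, 1.1 and 1.23% at 4 hpf, without overlap (exact permutation test, two-sided p = 0.1). rplp2, an acidic stalk protein gene, was at 40.1, 62.6 and 35.8 CPM against 11.4, 9.15 and 9.29 CPM (2.21 ± 0.34). Of 35 ribosome biogenesis genes, 22 rose, 3 fell and 10 were not called (median 0.80), and 8 fell with library totals and 6 without replicate 2 of 5 hpf. GNL3, the nucleostemin gene, was at 103, 234 and 66.5 CPM against 18, 11.8 and 20.4 CPM (3.01 ± 0.33, or 2.34 without replicate 2 of 5 hpf), the rRNA methyltransferase gene nop2 rose by 2.91 ± 0.36 (2.15 without it) and POLR1B, a subunit gene of RNA polymerase I, by 2.37 ± 0.25. The 3 that fell were LTV1 (-0.96 ± 0.16), RRP9 (-0.81 ± 0.19) and POLR1C (-0.78 ± 0.23, but -0.51 with adjusted p = 0.0659 without replicate 3 of 5 hpf and -0.59 with adjusted p = 0.0523 without replicate 2 of 4 hpf). Of 20 translation factor genes, 14 rose and 2 fell, EIF6 (-0.67 ± 0.19) and eif4eb (-0.47 ± 0.2), where 5 fell with library totals. The call of eif4eb was lost without any one of the libraries except replicate 3 of 4 hpf (-0.53 to -0.37). EIF4A2, an RNA helicase of initiation, rose by 4.09 ± 0.55 and the elongation factor gene eef2a.1 by 3.64 ± 0.31.

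Chaperonin and proteasome genes rose in most cases. Of 8 cytosolic chaperonin genes, 7 rose and CCT8 was not called (-0.01), but 3 rose and 1 fell with library totals. CCT4 was at 202, 360 and 138 CPM against 38.8, 37.7 and 52.6 CPM (2.44 ± 0.25), while CCT5, with 102, 215 and 59.7 CPM against 63.1, 71.8 and 60.4 CPM, overlapped between ages and was not called without replicate 2 of 5 hpf (0.95 ± 0.28, against 0.31 with adjusted p = 0.32 without it). Of 44 measured genes with proteasome names, 30 rose and 4 fell (median 0.79), and 17 rose with library totals. The catalytic subunit gene PSMB6 was at 37.8, 59.5 and 25.3 CPM against 3.27, 2.04 and 3.31 CPM (3.83 ± 0.37), and the ring subunit gene PSMA1 rose by 2.83 ± 0.4 (2.08 without replicate 2). The 4 that fell were the regulatory subunit gene PSMD11 (-1.24 ± 0.24), the assembly factor genes PSMD5 (-1.26 ± 0.23) and PSMD10 (-1.08 ± 0.21), and PSMC3IP (-1.88 ± 0.37), a recombination cofactor gene that carries the name without being a subunit. PSMD5 was at -1.93 without replicate 2 of 5 hpf, and PSMD10 was not called without replicate 1 of 4 hpf (-0.66, adjusted p = 0.111).

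Of 13 genes encoded by the mitochondrial genome, 5 fell, 0 rose and 8 were not called (median -0.72), and 8 fell with library totals. MT-CO2, a subunit of cytochrome c oxidase, was at 1671, 1425 and 2637 CPM at 5 hpf and at 5250, 2684 and 6606 CPM at 4 hpf (-1.34 ± 0.34, adjusted p = 0.00125). Its groups are separated by a narrow gap, between replicate 3 of 5 hpf and replicate 2 of 4 hpf. The cytochrome b gene MT-CYB (-0.84 ± 0.28) and the oxidase gene MT-CO3 (-0.72 ± 0.27) fell with libraries that overlap. Without replicate 2 of 5 hpf 3 of the 13 fell, and neither of these was called (-0.63 and -0.52, adjusted p = 0.0881 and 0.146), nor without replicate 3 of 4 hpf (-0.56 and -0.43, adjusted p = 0.107 and 0.199). MT-CO3 was not called without replicate 1 of 5 hpf (-0.64, adjusted p = 0.0825) or of 4 hpf (-0.71, adjusted p = 0.0516) either. The 13 genes took 1.62, 1.15 and 2.98% of the counts at 5 hpf and 4.31, 2.41 and 5.57% at 4 hpf, with overlap (exact permutation test, two-sided p = 0.2). Of 75 mitochondrial ribosomal protein genes, 33 fell and 18 rose (median -0.54), and 10 rose with library totals. MRPL48 was at 2.24, 5.19 and 2.17 CPM against 21.7, 17.3 and 13.3 CPM (-2.45 ± 0.44), and mrpl20 at 13, 21 and 10.5 CPM against 1.65, 1.12 and 1.72 CPM (3.31 ± 0.44). Of 97 measured nuclear genes of the respiratory chain and its assembly, 34 rose and 16 fell (median 0.15), beside 28.4% and 25.7% over all genes. With library totals 18 rose and 32 fell, and the median turned to -0.31.

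**Figure D4:**
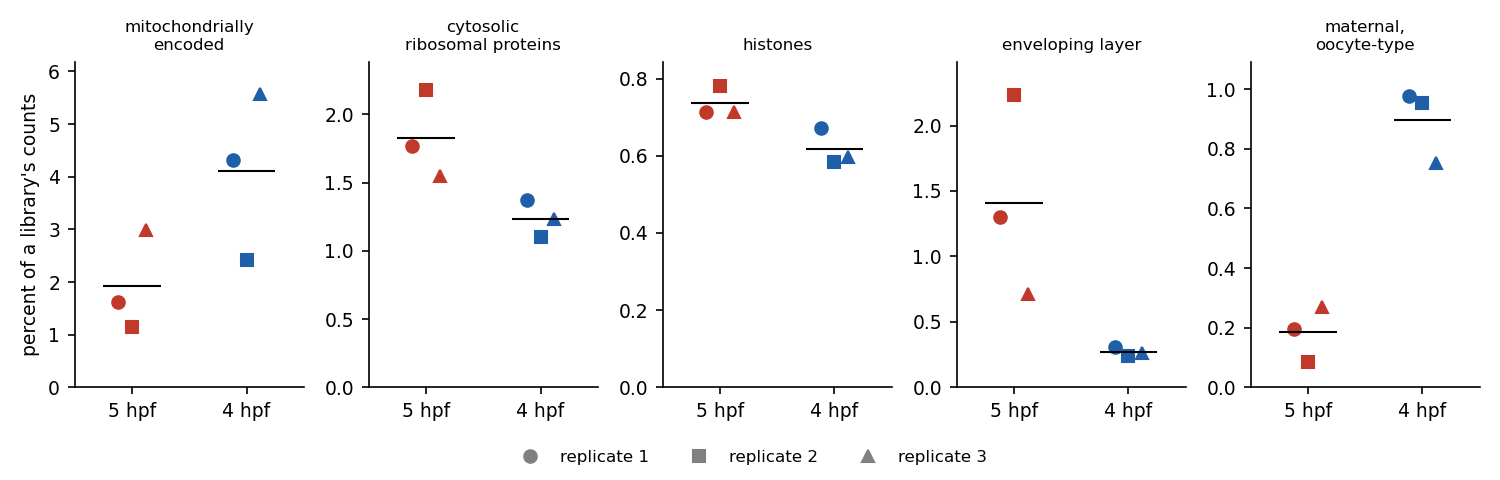
Percent of each control library's counts held by 5 gene classes, 5 hpf in red and 4 hpf in blue, with the marker shape giving the replicate and the line the mean of 3 (all y axes start at 0). Only the mitochondrially encoded class overlaps between the ages, at 1.15 to 2.98% and 2.41 to 5.57%.

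Cell cycle and DNA replication genes changed in both directions, beside 28.4% of all genes that rose and 25.7% that fell. Of 39 measured members, 21 rose and 8 fell (median 0.78), and 15 fell with library totals. CCND1, the G1 cyclin D1 gene, was at 1413, 2030 and 987 CPM at 5 hpf and at 119, 78.7 and 147 CPM at 4 hpf (3.69 ± 0.46, adjusted p = 8.79e-08). CCNE2, another G1 cyclin gene, rose by 4.11 ± 0.58 (4.79 without replicate 3 of 4 hpf), and RBL2, a relative of the retinoblastoma gene, was at 18.9, 31.8 and 16.5 CPM against 0.508, 0.461 and 0.921 CPM (5.16 ± 0.58). All 3 genes had groups far apart. cdkn1a, the p21 inhibitor gene, was at 17.2, 9.95 and 84.2 CPM against 2.03, 3.36 and 7.45 CPM (3.12 ± 0.67), a size that rests on replicate 3 of 5 hpf (1.67 without it, and 3.78 without replicate 3 of 4 hpf). The mitotic cyclin gene CCNB2 fell (-2.30 ± 0.27) with the checkpoint kinase genes chek2 (-2.18 ± 0.3), CHEK1 (-1.51 ± 0.2), ATR (-1.49 ± 0.42) and ATM (-1.32 ± 0.4, or -0.94 with adjusted p = 0.0718 without replicate 2 of 4 hpf). Of 36 DNA replication genes, 12 rose and 14 fell, with a median of 0.05 that was -0.39 with library totals, where 6 rose, and -0.04 without replicate 2 of 5 hpf, where 7 rose. The helicase genes MCM3 (388, 762 and 215 CPM against 19.9, 10.1 and 29.5 CPM, 4.52 ± 0.68, or 3.93 without replicate 2 of 5 hpf) and MCM7 (2.39 ± 0.21) rose. The origin recognition gene orc2 (-2.53 ± 0.29), GINS2 (-2.32 ± 0.39) and GMNN, the licensing inhibitor geminin (255, 190 and 390 CPM against 1454, 1014 and 1290 CPM, -2.17 ± 0.27), fell.

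Genes of the apoptosis and stress list rose in 14 of 21 cases and fell in 5 (median 1.78), or in 2 without replicate 2 of 5 hpf. foxo3b, a forkhead factor gene of stress responses, was at 61.8, 73.8 and 73.6 CPM against 2.41, 4.01 and 4.23 CPM (4.30 ± 0.4, adjusted p = 2.22e-10), with little spread within either age. The pleckstrin homology domain gene PHLDA3 was at 36.5, 35.8 and 90.7 CPM against 1.68, 1.55 and 5.27 CPM (4.27 ± 0.65, or 5.07 without replicate 3 of 4 hpf), with replicate 3 the highest library of each age. The integrated stress response factor gene atf4a was at 217, 467 and 266 CPM against 17.8, 10.8 and 44.2 CPM (3.71 ± 0.5, or 4.46 without replicate 3 of 4 hpf). The 5 that fell were the apoptosis inhibitor genes bcl2l10 (-1.68 ± 0.29) and bcl2a (-1.62 ± 0.5), the ER chaperone gene HSPA5 (-1.26 ± 0.3) and the caspase genes casp8 (-0.95 ± 0.33) and CASP9 (-0.76 ± 0.25). Without replicate 2 of 5 hpf, bcl2a (-1.27, adjusted p = 0.0524), casp8 (-0.89, adjusted p = 0.0508) and CASP9 (-0.49, adjusted p = 0.116) were not called. Without replicate 2 of 4 hpf the calls of casp8 (-0.77, adjusted p = 0.0781) and CASP9 (-0.54, adjusted p = 0.105) were lost, and that of casp8 also without replicate 1 of 4 hpf (-0.84, adjusted p = 0.0552). Of 19 immediate early genes, 7 rose and 3 fell, or 5 fell with library totals. BTG1, an antiproliferative gene, was at 219, 179 and 282 CPM against 33.1, 21.1 and 37.4 CPM (2.89 ± 0.25), and FOSL1, an AP-1 subunit gene, rose by 2.73 ± 0.9 with overlapping libraries. FOSL1 was at 0.64 without replicate 3 of 5 hpf and at 3.82 without replicate 3 of 4 hpf, and not called without replicate 1 or 2 of 4 hpf (2.31 and 2.46, adjusted p = 0.0604 and 0.0532).

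Transcription and chromatin genes changed in both directions, where 28.4% of all genes rose and 25.7% fell. Of 31 transcription machinery genes, 12 rose and 8 fell (median 0.41, or -0.06 with library totals, where 7 rose and 11 fell). POLR2A, the large subunit gene of RNA polymerase II, rose by 1.74 ± 0.25, and the Mediator gene MED1 was at 41, 126 and 27.4 CPM against 8.31, 9.97 and 8.66 CPM (2.85 ± 0.36, or 1.93 without replicate 2 of 5 hpf). taf4a, a TFIID subunit gene, fell by 2.28 ± 0.39. Of 29 chromatin genes, 18 rose and 6 fell, and 11 rose without replicate 2 or with library totals. The DNA methyltransferase gene dnmt3ba was at 402, 588 and 259 CPM against 70.6, 40.1 and 41.7 CPM (3.04 ± 0.33), while the maintenance enzyme gene DNMT1 fell (-1.92 ± 0.29). KMT2D, a histone H3K4 methyltransferase gene, rose by 2.32 ± 0.35. Of 30 histone genes, 12 rose and 2 fell (median 1.06), the falls being H2BK1 (-1.87, or -1.50 with adjusted p = 0.0699 without replicate 2 of 5 hpf) and the maternal h1m (-2.23). Histone genes took 0.714, 0.78 and 0.713% of the counts at 5 hpf and 0.671, 0.584 and 0.596% at 4 hpf, without overlap (exact permutation test, two-sided p = 0.1). Of 316 measured genes named znf, 148 rose and 54 fell (median 0.91). The zinc finger genes znf185 (217, 641 and 55.1 CPM against 2.44, 2.47 and 3.27 CPM, 6.80 ± 0.81, or 5.64 without replicate 2) and znf750 (8.17 ± 1.29, or 5.32 without it) had the largest rises of these.

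Of 12 measured Nodal pathway genes, 5 fell, 2 rose and 5 were not called (median -1.21), and 1 rose with library totals or without replicate 2 of 5 hpf. ndr2 was at 0.657 ± 0.321 CPM and 0.494 ± 0.176 CPM (0.40 ± 0.6, adjusted p = 0.593), and ndr1 was not called either (-1.19 ± 0.6, adjusted p = 0.0936), but was called without replicate 3 of 5 hpf (-2.34, adjusted p = 0.00826). The transducer gene SMAD2 was at 41, 38.5 and 42.7 CPM against 141, 190 and 109 CPM (-1.85 ± 0.23), and the receptor gene ACVR2A fell by 1.66 ± 0.23. The maternal ligand gene gdf3, whose product pairs with Nodal, was at 212 ± 61.4 CPM against 640 ± 92.9 CPM (-1.59 ± 0.24), and the co-receptor gene tdgf1 rose by 1.1 ± 0.27. The feedback inhibitor gene lft2 stood under 2 CPM in each of the 6 compared control libraries. It changed by -3.42 ± 0.7 (-4.73 without replicate 3 of 5 hpf). Its relative lft1 changed by -1.64 ± 0.65 (-3.25 without that library), and was not called without replicate 1 or 2 of 5 hpf (-1.33 and -1.18, adjusted p = 0.129 and 0.153) or without replicate 3 of 4 hpf (-1.33, adjusted p = 0.117). Of 15 Fgf pathway genes, 7 rose and 2 fell. The receptor gene fgfr4 was at 515, 715 and 386 CPM against 82.2, 33.4 and 70.1 CPM (3.12 ± 0.54), and FGFR2 rose by 3.40 ± 0.76 (2.33 without replicate 2). The falls were IL17RD (-1.43 ± 0.3) and etv5a (-1.37 ± 0.23), a receptor-level inhibitor gene and an Ets target gene.

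Of 20 Wnt pathway genes, 7 rose and 5 fell (median 0.80), beside 28.4% and 25.7% over all genes, and 8 fell with library totals. The co-receptor gene LRP6 was at 104, 183 and 47.4 CPM against 9.68, 10 and 9.42 CPM (3.52 ± 0.47), and the Wnt target gene sp5l at 10.8, 78.6 and 61.8 CPM against 1.9, 2.53 and 7.2 CPM (3.71 ± 0.7, or 4.50 without replicate 3 of 4 hpf). CTNNB1, the gene of beta-catenin, rose by 2.21 ± 0.19. GSK3B rose (3.44 ± 0.43, or 2.84 without replicate 2 of 5 hpf) and its paralog gsk3bb, under 5 CPM in each library, fell (-3.55 ± 0.79). Of 11 Notch pathway genes, 8 rose and 2 fell, and 4 rose and 1 fell without replicate 2. NOTCH3, a receptor gene, was at 95.9, 244 and 103 CPM against 0.349, 1.12 and 4.6 CPM (6.22 ± 0.82, or 7.64 without replicate 3 of 4 hpf), and the ligase gene MIB1 rose by 2.93 ± 0.33 (2.29 without replicate 2). The ligand gene dlc, at 2.24, 305 and 25.9 CPM against 3.46, 3.65 and 26.9 CPM, and the Hairy-related gene her1, at 0.0457, 22.3 and 0.15 CPM against 0.793, 0.724 and 1.13 CPM, overlapped between ages, with replicate 2 of 5 hpf far above the rest. Their rises of 3.30 ± 1.19 and 3.07 ± 1.19 became 0.33 (adjusted p = 0.824) and -3.03 (adjusted p = 0.075) without it, and dlc was at 4.96 without replicate 3 of 4 hpf. Neither was called without replicate 1 of 4 hpf (2.87 and 3, adjusted p = 0.0775 and 0.0786) or replicate 2 of 4 hpf (2.88 and 2.95, adjusted p = 0.085 and 0.084). her1 was also lost without replicate 3 of 4 hpf (3.28, adjusted p = 0.0518), and was at 3.66 without replicate 1 or 3 of 5 hpf. Of 5 retinoic acid pathway genes, RXRB (2.08 ± 0.2), raraa (2.01 ± 0.38, or 1.40 without replicate 2) and CYP26A1 (1.11 ± 0.26) rose, and the receptor gene rarab fell (-0.90 ± 0.18).

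Cell movement genes rose in 13 of 19 cases and fell in 1, the claudin gene cldnd (-2.26 ± 0.5). The Apelin receptor genes aplnra (181, 140 and 97.3 CPM against 5.9, 3.69 and 14.3 CPM, 4.14 ± 0.48, or 4.86 without replicate 3 of 4 hpf) and aplnrb (2.02, or 1.36 without replicate 3 of 5 hpf) rose. The Snail gene snai1b rose by 2.96 ± 0.8 (2.09 without replicate 1 of 5 hpf), with 4.61 CPM in its lowest 5 hpf library and 4.12 CPM in its highest 4 hpf library. The E-cadherin gene cdh1 was not called (0.42 ± 0.19, adjusted p = 0.0639), but was called without replicate 3 of 5 hpf (0.60, adjusted p = 0.0108) or replicate 1 of 4 hpf (0.59, adjusted p = 0.0203). Of 9 glycolysis genes 4 fell and 1 rose, and of 16 cholesterol synthesis genes 6 fell and 2 rose. Over all genes 25.7% fell and 28.4% rose. HK2, a hexokinase gene, was at 10.5, 9.41 and 13.2 CPM against 66.3, 66.8 and 41.7 CPM (-2.40 ± 0.3). HK1 held 1 count at 4 hpf and 11.7, 59.2 and 4.12 CPM at 5 hpf, 1869-fold higher by scaled counts with a 95% counting interval of 335 to 73869, and its fitted value of 10.47 was 8.81 without replicate 2 of 5 hpf and 12.06 without replicate 3 of 4 hpf. The sterol synthesis gene HMGCS1 fell by 1.92 ± 0.38 and IDI1 rose by 1.52 ± 0.25.

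Neural ectoderm, mesendoderm and yolk syncytial genes changed in both directions, and several were low or uneven between libraries. The counts called in these lists stand beside 28.4% of all genes that rose and 25.7% that fell. Of 12 measured neural ectoderm genes, 7 rose and 4 fell. The head factor gene otx2a was at 21.3, 76 and 68.8 CPM against 0.286, 0.197 and 2.39 CPM (5.92 ± 0.8, or 7.80 without replicate 3 of 4 hpf). SOX2, the neural SoxB1 gene, was at 1.92, 209 and 12.2 CPM against 0.254, 0.461 and 1.59 CPM, a rise of 6.65 ± 1.23 that was 3.26 without replicate 2 of 5 hpf and 7.68 without replicate 3 of 4 hpf. Of 20 mesendoderm genes, 2 rose (tbx16 and the notochord gene noto, 1.53 with adjusted p = 0.0385), 5 fell (3 without replicate 2 of 5 hpf) and 13 were not called. noto was at 22.6, 9.84 and 107 CPM at 5 hpf against 6.7, 10.9 and 30.9 CPM at 4 hpf, with overlap, and its value was 0.01 without replicate 3 of 5 hpf (adjusted p = 0.989). Its call was also lost without replicate 1 or 2 of 4 hpf (1.16 and 1.31, adjusted p = 0.163 and 0.131), and it was at 2.40 without replicate 3 of 4 hpf. The prechordal gene gsc was at 2.88, 0.595 and 4.2 CPM against 9.8, 8.33 and 14.4 CPM (-2.06, adjusted p = 0.00673), and lhx1a at 1.42, 0.649 and 1.65 CPM against 9.27, 11.8 and 8.92 CPM (-2.99 ± 0.62). The endoderm genes sox32 and sox17 stayed under 1 CPM in each of the 6 libraries. The 9 mesendoderm markers summed to 693, 735 and 633 CPM at 5 hpf and to 58.2, 46.3 and 132 CPM at 4 hpf. At 5 hpf most of the sum was tbx16 (651, 718 and 457 CPM). Replicate 3 of 5 hpf also held noto at 107 CPM and chrd at 54.5 CPM. The yolk syncytial markers summed to 2.92, 0.973 and 3.67 CPM and to 5.62, 12 and 4.77 CPM, with hhex at 0 in all 5 hpf libraries, apoa1b at 0 in all 4 hpf libraries and apoa4b.1 below the filter. Of the 10 measured genes of the yolk syncytial list 3 rose and 1 fell, with a median of 0.40 that was -0.03 with library totals, and 0 fell without replicate 2 of 5 hpf. The 3 that rose were MTTP, apoc1 and apoa1b, and MTTP and apoc1 are not among the summed markers. MTTP rose by 5.53 ± 0.89 (9.05 without replicate 3 of 4 hpf). apoc1 was at 12.7, 165 and 14 CPM against 4.19, 1.81 and 5.61 CPM (4.05 ± 0.91). Without replicate 2 of 5 hpf, apoc1 was at 1.79 and not called (adjusted p = 0.0547). The rise of apoa1b (3.97 ± 1.55) rests on 6 counts, with overlapping libraries. The part of these cell types in the changes of other genes was not tested.

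The same step was read in explants that had received 2 pg of ndr2 mRNA (3 libraries at each age). There 4507 genes (21.4%) rose and 4385 (20.8%) fell. Of the genes that rose in controls, 3375 (56.4%) also rose with 2 pg and 83 fell, with a median of 1.14, and of those that fell in controls, 3124 (57.6%) also fell and 93 rose, with a median of -1.11. The step itself differed from the control step in 1028 genes that were higher (4.88%) and 1408 that were lower (6.68%). With 2 pg, krt5 was at 1960, 1780 and 1895 CPM at 5 hpf against 23.2, 9.11 and 27 CPM at 4 hpf, and buc at 11.5, 22 and 23.4 CPM against 68.8, 155 and 132 CPM. At 4 hpf the 2 pg libraries thus lay above all control libraries for krt5 and below them for buc. krt5 rose by 6.57 with 2 pg, vox by 4.07, and buc fell by 2.65 on the log2 scale, against 10.73 (9.13 to 12.23 with 1 library left out), 4.38 and -4.42 in controls. The difference between these steps was called for krt5 (-4.16, adjusted p = 0.0243). It was not called for vox (-0.31, adjusted p = 0.77) or buc (1.77, adjusted p = 0.113). The difference between 2 pg and control steps was not stable in number: leaving out 1 library gave 559 to 1357 genes higher and 904 to 1640 lower.

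With 10 pg of ndr2 and CHX, fewer genes were called between the ages. The group had 3 libraries at 5 hpf and 2 at 4 hpf, since a column of each of the 10 pg groups at 4 hpf held the same values as the other in all genes and both were dropped. 2047 genes (9.71%) rose and 1599 (7.59%) fell, but without replicate 2 of 4 hpf, where 1 library stands for the group and is assumed to vary like the others, 216 rose and 206 fell. Of the control risers, 1317 (22%) rose with CHX and 215 (3.59%) fell, with a median of 0.64. Of the control fallers, 772 (14.2%) fell with CHX and 101 rose, with a median of -0.29. The CHX step was above the control step in 3043 genes (14.4%) and below it in 2646 (12.6%), and in 1609 and 1751 without that library. Replicate 2 of 5 hpf with CHX stood apart in several genes, tbx16 being at 20.2, 193 and 20.5 CPM and buc at 478, 94.3 and 376 CPM in the 3 libraries. Without it, 1616 genes rose and 1343 fell with CHX, and the CHX step was above the control step in 3491 genes and below it in 3292. Of the control risers, 15.1% then rose with CHX (median 0.31), and of the control fallers 9.30% fell (median -0.16). These shares were 3.38% (median 0.58) and 2.17% (median -0.30) without replicate 2 of 4 hpf with CHX. The CHX group carried 10 pg of ndr2 and the controls none, so this comparison does not separate CHX from ndr2. The series also holds 10 pg libraries without CHX at both ages, but their step was not compared here.

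Of the 26 maternal genes, 4 fell and 1 rose with CHX (median -0.56), and the CHX step was above the control step in 16 and below it in 1. Leaving out 1 CHX library gave 10 to 17 above and 0 to 1 below. buc changed by -0.58 (adjusted p = 0.522) there and by -4.42 in controls, with a difference of 3.84 between the steps (adjusted p = 0.0007). BTG4 differed by 3.55 (adjusted p = 0.000762), slbp2 by 3.54 (adjusted p = 0.000188) and sox19b by 2.71 (adjusted p = 0.000568). The difference was not called for h1m (-1.47 with CHX and -2.23 in controls, adjusted p = 0.224) or for GMNN (-1.44 and -2.17, adjusted p = 0.169), though it was for GMNN without replicate 2 of 4 hpf with CHX (1.30, adjusted p = 0.0403). Among rising genes, eef1a1l1 changed by -0.07 with CHX and differed from the control step by -2.58 (adjusted p = 5.5e-07), and vox by -4.81 (adjusted p = 2.18e-06). SPRY1, an Fgf feedback inhibitor gene, was at 2.31, 11.7 and 2.58 CPM with CHX at 5 hpf against 0.387 and 0.2 CPM at 4 hpf. It rose by 4.15 with CHX and 4.29 in controls (3.68 and 5.30 without replicates 1 and 3 of 4 hpf), and its difference of -0.13 was not called (adjusted p = 0.925). Its CHX rise was 2.97 and the difference -1.31 (adjusted p = 0.343) without replicate 2 of 5 hpf with CHX. BTG1 rose by 2.08 with CHX and 2.89 in controls (adjusted p of the difference = 0.083), a difference that was called without replicate 2 of 5 hpf (-1.04, adjusted p = 0.0243) or replicate 2 of 4 hpf with CHX (-1.13, adjusted p = 0.0403). Of the 84 cytosolic ribosomal protein genes, 63 fell and 0 rose with CHX (median -1.01), against 82 that rose with 2 pg (median 1.28).

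**Figure D5:**
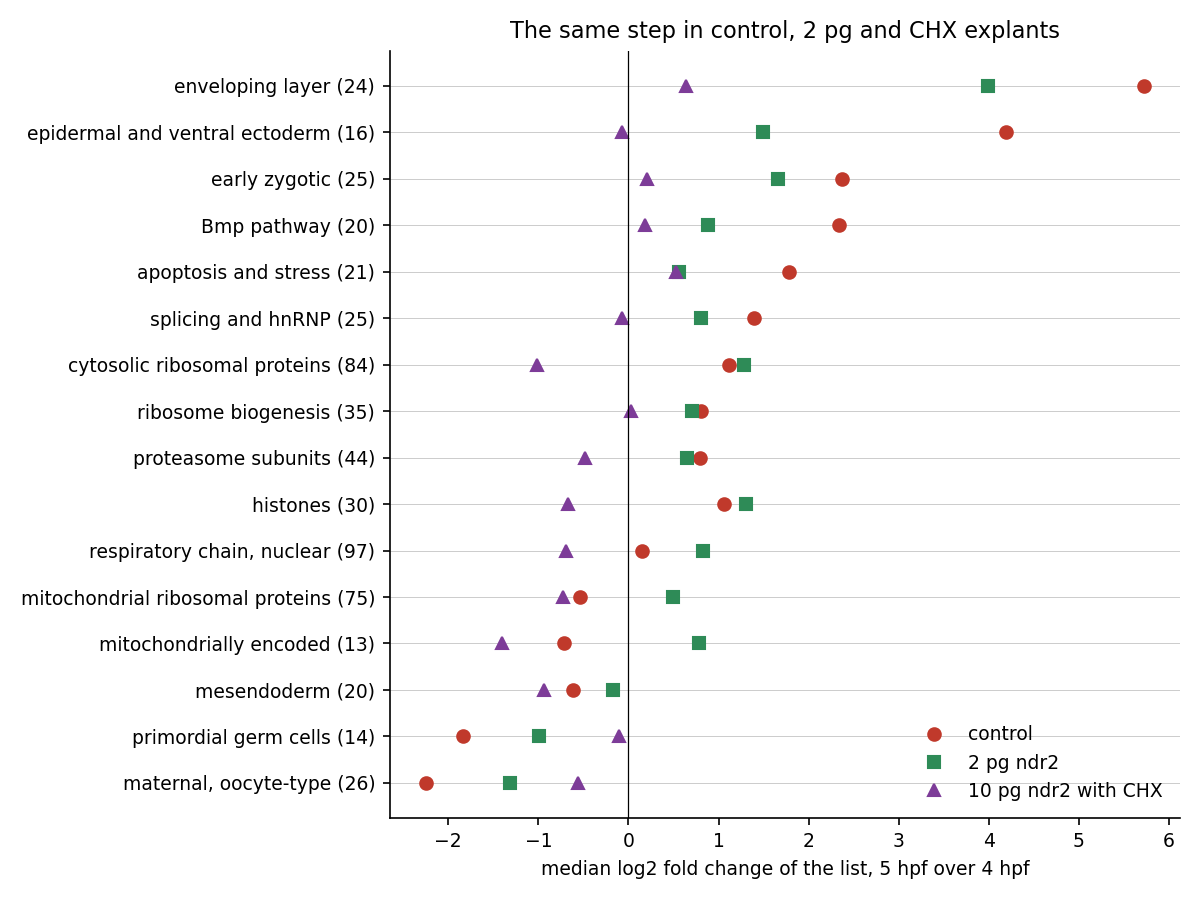
Median log2 fold change, 5 hpf over 4 hpf, of 16 gene lists (number measured in parentheses) in control explants (red circles), with 2 pg of ndr2 (green squares) and with 10 pg of ndr2 and CHX (purple triangles). The enveloping layer median is 5.72 in controls, 3.99 with 2 pg and 0.64 with CHX; that of the nuclear respiratory chain in controls (0.15) turns negative with library totals.

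The next step, 6 hpf against 5 hpf in controls, shares the 5 hpf libraries with the step described here, so its values are only set beside it. In it 288 genes (1.37%) rose and 1426 (6.77%) fell. krt5 changed by 0.75 (adjusted p = 0.615), vox by 0.52 (adjusted p = 0.441) and eef1a1l1 by 0.36 (adjusted p = 0.26). krt5 was at 3568, 3178 and 2374 CPM at 6 hpf, against 1041, 4245 and 152 CPM at 5 hpf. In all of these genes, replicates 1 and 3 of 5 hpf lay below each 6 hpf library. Replicate 2 of 5 hpf lay nearest to the 6 hpf controls, and the counts and sizes of this step were not tested without it. buc changed by -2 (adjusted p = 0.0197), BTG4 by -2.27 (adjusted p = 0.00734), h1m by -1.09 (adjusted p = 0.0221) and nanog by -1.30 (adjusted p = 0.00183).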

How the data were processed

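The authors deposited one table of raw counts per Ensembl gene (31465 genes, 45 columns). The submitters' processing notes name STAR, featureCounts, DESeq2 and the GRCz11 build. Versions, settings, the annotation release and the use of strand were not found in these sources, so reads of overlapping or near-identical genes cannot be told apart. Groups and replicate numbers come from the titles. At 4 hpf, the columns of replicate 3 of the 10 pg and of the 10 pg and CHX groups hold the same values in all genes, and neither was used.

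The fit used edgeR 4.0.16 in R 4.3.3 on 43 libraries in 15 groups, with TMM factors, a robust quasi-likelihood dispersion (common value 0.128) and 28 residual degrees of freedom. Low genes were removed with filterByExpr (minimum count 10, minimum total 15). Adjustment over 21075 genes was by Benjamini and Hochberg, at 0.05, for each comparison. The scripts were tested on simulated data. In the 6 libraries compared, 1 CPM stands for 18.5 to 31.5 counts, so levels near or under it are imprecise. Counting intervals cover counting error only. Shares of counts were compared by exact permutation over the 6 libraries.

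The symbol table named 28965 genes, and a RefSeq table of another assembly gave older names only. Genes were named by a rule: the 12 largest rises and falls among genes with a symbol, separate libraries and a mean of 5 CPM or more at the higher age; the 6 largest gains and losses in mean CPM; up to 4 called genes per list; the genome activation factors; 7 maternal and zygotic pairs; 10 genes with the largest called difference, under the same limits, between CHX and control steps; and cell type markers. Some that it allows are not reported here. Genes beside a count of 5 or fewer, and further list members, were picked with their values in view. Libraries, lists and the rule were chosen with earlier results of these data known. Promoters and microRNA sites were not described, for want of sequence tables. Alternatives were DESeq2 1.42.0, RLE scaling, library totals, no filter (29460 genes), fits of 6 or 9 control libraries, all 45 columns, a test against a 2-fold change, a replicate block, and leaving out each library in turn, which for list members, markers and the CHX step of single genes was added after seeing the data.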

Additional observations from a re-analysis of the deposited data

Results flagged for a closer look

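The change between the ages differed between kinds of explant when the difference itself was tested in the fit. The CHX step was higher than the control step in 3043 genes and lower in 2646, and the 2 pg step was higher in 1028 and lower in 1408. Both comparisons share the control libraries, and the CHX group carries 10 pg of ndr2 as well.

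Among differences that passed the test, the 10 largest in genes with a symbol, separate control libraries and a mean of 5 CPM or more at the higher age were all in genes that rose in controls and had a lower step with CHX. They were si:ch211-232i5.1 (-15.07 log2 units), B3GNT5 (-13.81), the Bmp inhibitor gene szl (-12.72), ponzr5 (-12.67), the keratin gene krt99 (-10.83), ch25hl1.1 of the cholesterol 25-hydroxylase family (-10.45), the epiplakin gene eppk1 (-9.87), the transgelin gene TAGLN (-9.61), zgc:194839 (-9.59) and the keratin gene krt97 (-9.51). The CHX libraries held few counts of most of them, so the fitted sizes depend on the prior count and are not bounds. Some also moved with 1 library. Without replicate 1 of 4 hpf with CHX, which leaves 1 library there, si:ch211-232i5.1 was at -11.23 and zgc:194839 at -5.07. Only sizes are given for that fit. It is not claimed that the calls of the 10 genes hold when 1 library stands for the group. The difference of ch25hl1.1 was not called without replicate 1 of 5 hpf with CHX (-10.04, adjusted p = 0.0508). The limits on level and separation were set on the controls. Under them, called genes reached 13.22 log2 units among control rises and 7.38 among control falls. The shared direction of the 10 genes thus follows in part from how they were chosen, and was not tested. krt97 was at 0.633, 1.36 and 0.697 CPM with CHX at 5 hpf and 1.2 and 1.27 CPM at 4 hpf. krt99 was at 0.223, 0.806 and 0.139 CPM at 5 hpf with CHX, against 10.3 and 6 CPM at 4 hpf. B3GNT5 and TAGLN share their symbols with another gene, so the paralog is uncertain.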

How the results depend on the processing

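Counts of the control step stayed within 1.5 times of the main values of 5981 higher and 5426 lower with DESeq2 (6358 and 5499), RLE scaling (6154 and 5253), the 6 control libraries alone (4451 and 4222), 9 controls, all 45 columns and no filter. A test against a 2-fold change called 3242 and 2644. With library totals the CHX step exceeded the control step in 4847 genes and lay below it in 1506, and foxh1 (-0.01) and MAX (-0.12) turned round. The replicate block, with numbers that did not pair libraries (r of same-numbered deviations 0.106, -0.143 and -0.079), gave 5926 and 5451. Leaving out 1 library gave 5088 to 5837 higher and 4718 to 5286 lower, 3593 to 4195 and 3285 to 4351 for the 2 pg step, 216 to 2030 and 206 to 1600 for the CHX step, 1609 to 3491 and 1751 to 3292 for CHX against control, and 559 to 1357 and 904 to 1640 for 2 pg against control. Without replicate 2 of 5 hpf, 5281 rose and 4750 fell, and her1 (-3.03) turned round while eve1 went to 0.00. With any of the 6 libraries left out, these 2 ranged over -3.03 to 3.66 and 0.00 to 9.15. The causes were not tested. At this depth, genes with few counts are measured with little precision.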
